A study of Homo sapiens with 45 samples.

Results

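A673 is an Ewing sarcoma cell line, and its 3 parental libraries were compared with 18 libraries of the other 6 Ewing sarcoma lines of the series, EW3, EW24, MHHES1, RDES, SKES1 and TC71. These 21 libraries belong to a set of 45 poly(A) RNA libraries, and each line was represented by 3 of them. A gene was taken as highest in A673 when all 3 A673 libraries lay above all 18 others and the A673 mean was at least 1 TPM, the level of a transcript scaled for its length and for library size. It was taken as lowest when all 3 lay below all 18 others and the mean of the 6 lines was at least 1 TPM. The rule gave 828 genes highest and 968 genes lowest. The labels name no treatment, genotype or clone for these 7 lines, and give Ewing sarcoma as the cell type of each. Beside them, 3 libraries of A673 cells with sh908, an inducible hairpin directed against KCNN1, were used as a separate set of A673 libraries; they had received no doxycycline, the drug that switches the hairpin on. Levels in 18 libraries of 6 osteosarcoma lines are given where they help to place a gene. The comparison asks what sets A673, a line often used as the model of this tumour, apart from other lines of the same tumour type.

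Ewing sarcoma arises when EWSR1 is joined to a gene of the ETS family, usually FLI1, and the resulting fusion protein both activates and represses genes. A673 is known to carry an activating BRAF mutation and a deletion of CDKN2A, neither of which is a defining feature of the tumour; genotypes were not analysed here. BRAF is a kinase upstream of MEK and ERK, and active ERK induces a set of transcription factors together with phosphatases and Sprouty proteins that dampen the same pathway.

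The gene counts summed to 26814221 to 37815602 per A673 library, 23132161 to 51413254 in the other 6 lines and 16619617 to 22870909 in the uninduced sh908 libraries. The labels do not say whether the 3 libraries of a line came from separate cultures, so the spread between them may be technical. Over 18800 genes on the log2(TPM + 1) scale, the A673 libraries correlated with each other at 0.985 to 0.987 (Pearson, across genes, which are not independent), with the sh908 libraries at 0.94 to 0.954, and with the other lines at between 0.861 (EW3) and 0.921 (TC71). The third sh908 library often stood apart from the first and second, and a range given for these cells covers all 3. The 8 Ewing markers summed to 2639 to 3023 TPM in A673 and 1216 to 3320 TPM in the others. The 6 epithelial markers lay above the other lines, at 600.4 to 649 TPM against 2.76 to 371 TPM, nearly all of it KRT18. Muscle markers summed to 0.84 to 1.18 TPM and blood cell markers to 3.19 to 3.98 TPM, both within the range of the other lines. MYOD1, MYOG and MYF5, the muscle regulators, had 0 counts in A673, as had CD3E and HBB, while the muscle myosin MYH3 (0.653 to 0.88 TPM) and the macrophage marker CD68 (2.85 to 3.67 TPM) made up most of these sums.

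Genes highest in A673 made up 6.0% of the 13809 genes that reached 1 TPM there, and genes lowest in A673 made up 6.20% of 15619. The same rule gave 1983 highest and 743 lowest genes for EW3, 1836 and 425 for RDES, and 629 and 1435 for TC71, so A673 was not the line with the most genes at an extreme. Most gaps were narrow. The ratio of the nearest A673 library to the nearest other library had a median of 1.28 among the highest and 1.32 among the lowest genes, and it reached 2-fold for 194 and 265 genes. At the edge of the rule, GATB was inside with 26 to 26.1 TPM in A673 and up to 26 TPM elsewhere, and ITGA5 was outside with 108 to 112 TPM in A673 and up to 108 TPM elsewhere. On log2 CPM, counts scaled by library size but not by length, in place of TPM, 1137 genes were highest and 795 lowest, which turned the balance of the directions. Without TC71 the genes lowest in A673 numbered 1960, and without the third library of every line 1829.

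**Figure D1:**
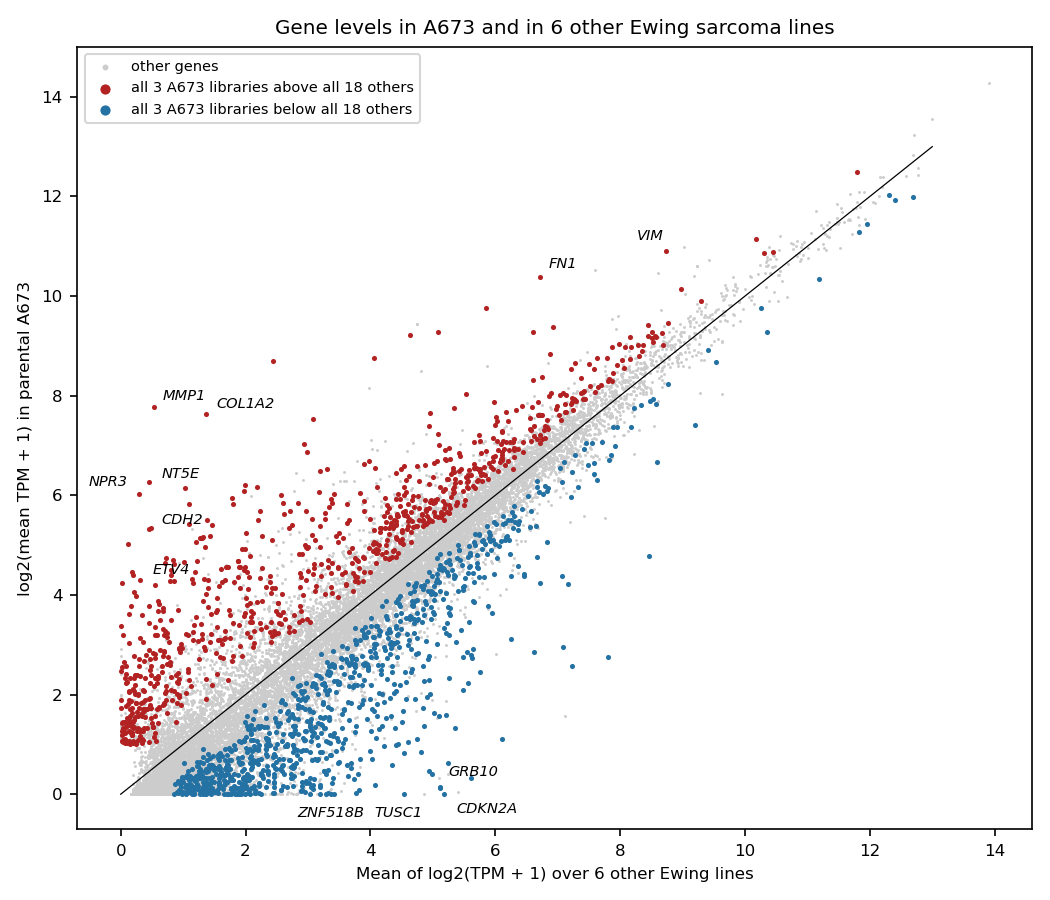
Each point is a gene that reached a mean of 1 TPM in at least 1 of the 7 lines; the x axis is the mean of log2(TPM + 1) over the 6 other Ewing lines and the y axis is log2(mean TPM + 1) in A673. Red marks 827 of the 828 genes highest in A673 (1 noncoding gene is not drawn) and blue the 968 lowest, with the line of equality in black; MMP1 and COL1A2 lie far above the line and CDKN2A, TUSC1 and GRB10 on or near the floor.

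The tests used measured different errors. The main test, edgeR's quasi-likelihood test on 1 summed profile per line, set A673 against the spread among the 6 other lines and assumed that A673 would vary as they do. It called 1 of 25633 genes at a false discovery rate (FDR) under 0.05, or 0.00390%; that noncoding gene lies outside the rule for named genes and its level is not reported here. An unadjusted p under 0.05 was reached by 1376 genes (5.37%), of which 681 (2.66%) were higher and 695 (2.71%) lower in A673. A single line set against 6 gives an exact permutation p of at least 0.143 for any 1 gene. The second fit kept the 21 libraries apart with 1 mean per line, so that its error was the spread between libraries of a line. It averaged the 6 other line means on the log scale, whereas the main test fitted 1 common level to the 6 sums. The log2 fold changes of a gene over lines and over libraries can therefore differ. The second fit called 11315 genes (44.1%), 6187 higher (24.1%) and 5128 lower (20%). An FDR is named below as over lines or over libraries accordingly, and a difference that passed only over libraries exceeded the replicate spread and is not shown to exceed the spread among lines. Over all genes the log2 fold change had a median of -0.19 over lines and -0.04 over libraries.

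The same rule applied to the uninduced sh908 libraries against the same 18 libraries gave 465 genes highest and 1703 lowest. The comparisons share these 18 libraries, and the sh908 cells are another set of A673 libraries rather than another line. Their values are therefore set beside those of parental A673 for the genes described at most length and not counted as a second result.

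The ERK output genes and the genes of the extracellular matrix and contractile apparatus had the highest median differences of the 18 gene lists examined. The lists were chosen with earlier results of these data known, so their order is a description only. The ERK output list came first over lines (2.20 against 1.98) and the matrix list over libraries (3.0 against 2.70) and with limma on log2(TPM + 1) (2.33 against 1.66). Of 18 genes listed as ERK targets and feedback regulators, 17 had a log2 fold change above 0 (10372 of 25633 for all genes). In this list 10 were highest in A673 (6.0% of all eligible genes). The group's median log2 fold change over lines was 2.20, beside -0.19 for all genes. In edgeR over lines, 8 reached an unadjusted p under 0.05 in the higher direction (2.66% of all genes), 0 in the lower direction, and 0 were called. Over libraries, 14 were called higher (24.1% of all genes) and 1 lower (20% of all genes). ETV4 was called by DESeq2 and by limma on log2(TPM + 1), and ETV4, ETV5, SPRY4, DUSP4, DUSP5 and FOSL1 with line as a random effect. Of all 25633 genes, DESeq2 called 109 higher, limma 128 and the random effect fit 360. The 10 were ETV4, SPRY4, DUSP4, FOSL1, ETV5, DUSP6, DUSP5, SPRED2, SPRY1 and PHLDA1.

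Among the transcription factors, ETV4 (chr17:43527846-43546340, GRCh38.p14), an ETS factor of the PEA3 family, measured 14.9, 20.2 and 20.7 TPM in the 3 A673 libraries. The 18 other libraries ran from 0 to 0.997 TPM with a median of 0.146 TPM. No line approached A673: the lowest A673 library was 14.9-fold above the highest other library, and the log2 fold change was 6.54 (SE 0.94, FDR 0.14) over lines and 6.95 (SE 0.29, FDR 6.1e-14) over libraries. The sh908 libraries measured 36.5, 33.9 and 9.61 TPM. Its relative ETV5 (chr3:186046314-186109089) measured 62.9, 58.5 and 67.3 TPM, against 1.11 to 26.5 TPM elsewhere with a median of 2.33 TPM. SKES1 and TC71 carried the higher ETV5 levels among the other lines, with means of 22.5 and 16.1 TPM, and the log2 fold change was 3.03 (SE 1.35, FDR 0.91) over lines. FOSL1, which encodes the AP-1 subunit FRA1, measured 19.7, 26.1 and 22.2 TPM against at most 11.9 TPM in MHHES1. In sh908 cells FOSL1 was 21.8, 13.8 and 2.17 TPM, so the third of these libraries lay within the range of the other lines.

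Among the feedback inhibitors, SPRY4 (chr5:142310430-142325021), a Sprouty protein that limits receptor signalling to ERK, measured 18.9, 18.4 and 17.8 TPM in A673 and 0.0221 to 3.35 TPM elsewhere. The gap to the nearest other library was 5.31-fold, and the log2 fold change was 4.45 (SE 1.22, FDR 0.63) over lines and 5.24 (SE 0.34, FDR 2e-09) over libraries. SPRY4 was also above the other lines in sh908 cells, at 16.4, 12.5 and 18 TPM. DUSP4, a nuclear ERK phosphatase, measured 8.9, 11.5 and 10.3 TPM against 0.0739 to 3.18 TPM, and the highest other line was EW3 with a mean of 3.12 TPM. DUSP6 (chr12:89347235-89352501), the cytoplasmic ERK phosphatase, measured 104, 98.9 and 91.9 TPM. Its range elsewhere was wide, from a mean of 0.456 TPM in EW24 to 65 TPM in MHHES1, and the nearest library lay only 1.2-fold below A673. DUSP5, another nuclear phosphatase, had a mean of 19.6 TPM against at most 11.2 TPM, and SPRED2, which blocks activation of RAF, 39.7 against at most 30.3 TPM. All 3 overlapped with the other lines in sh908 cells, where DUSP6 measured 79.8, 64.8 and 56.1 TPM, DUSP5 14, 11.2 and 3.71 TPM and SPRED2 34.1, 28.3 and 38.5 TPM. SPRY1 and PHLDA1 were low everywhere, with A673 means of 2.26 and 4.39 TPM and no other library above 0.866 and 2.64 TPM. In sh908 cells PHLDA1 measured 1.21, 0.451 and 0.528 TPM, within the range of the other lines, and SPRY1 1.11, 0.739 and 3.71 TPM, of which the second lay within it.

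The other 8 genes of the group overlapped with the other lines. CCND1, which encodes cyclin D1, was abundant in every line, with 736 ± 52.3 TPM in A673 (SD, n = 3) and line means from 454 TPM in TC71 to 1317 TPM in MHHES1. EPHA2, an ephrin receptor, measured 94.4 ± 3.21 TPM in A673, below RDES at 135 TPM and above MHHES1 at 60.4 TPM. SPRY2 measured 7.72 ± 1.21 TPM, below SKES1 at 11.6 TPM. EPHA4 was the member called lower over libraries (log2 fold change -0.57, FDR 0.014): it measured 8.92 TPM in A673 and 71.5 and 69.1 TPM in EW3 and RDES. SPRED3, EGR1, IER3 and SPRED1 had A673 means of 1.29, 14.3, 42.5 and 6.41 TPM. The immediate early gene EGR1 differed 2-fold between the A673 libraries themselves, which gave 21.1, 10.5 and 11.2 TPM.

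**Figure D2:**
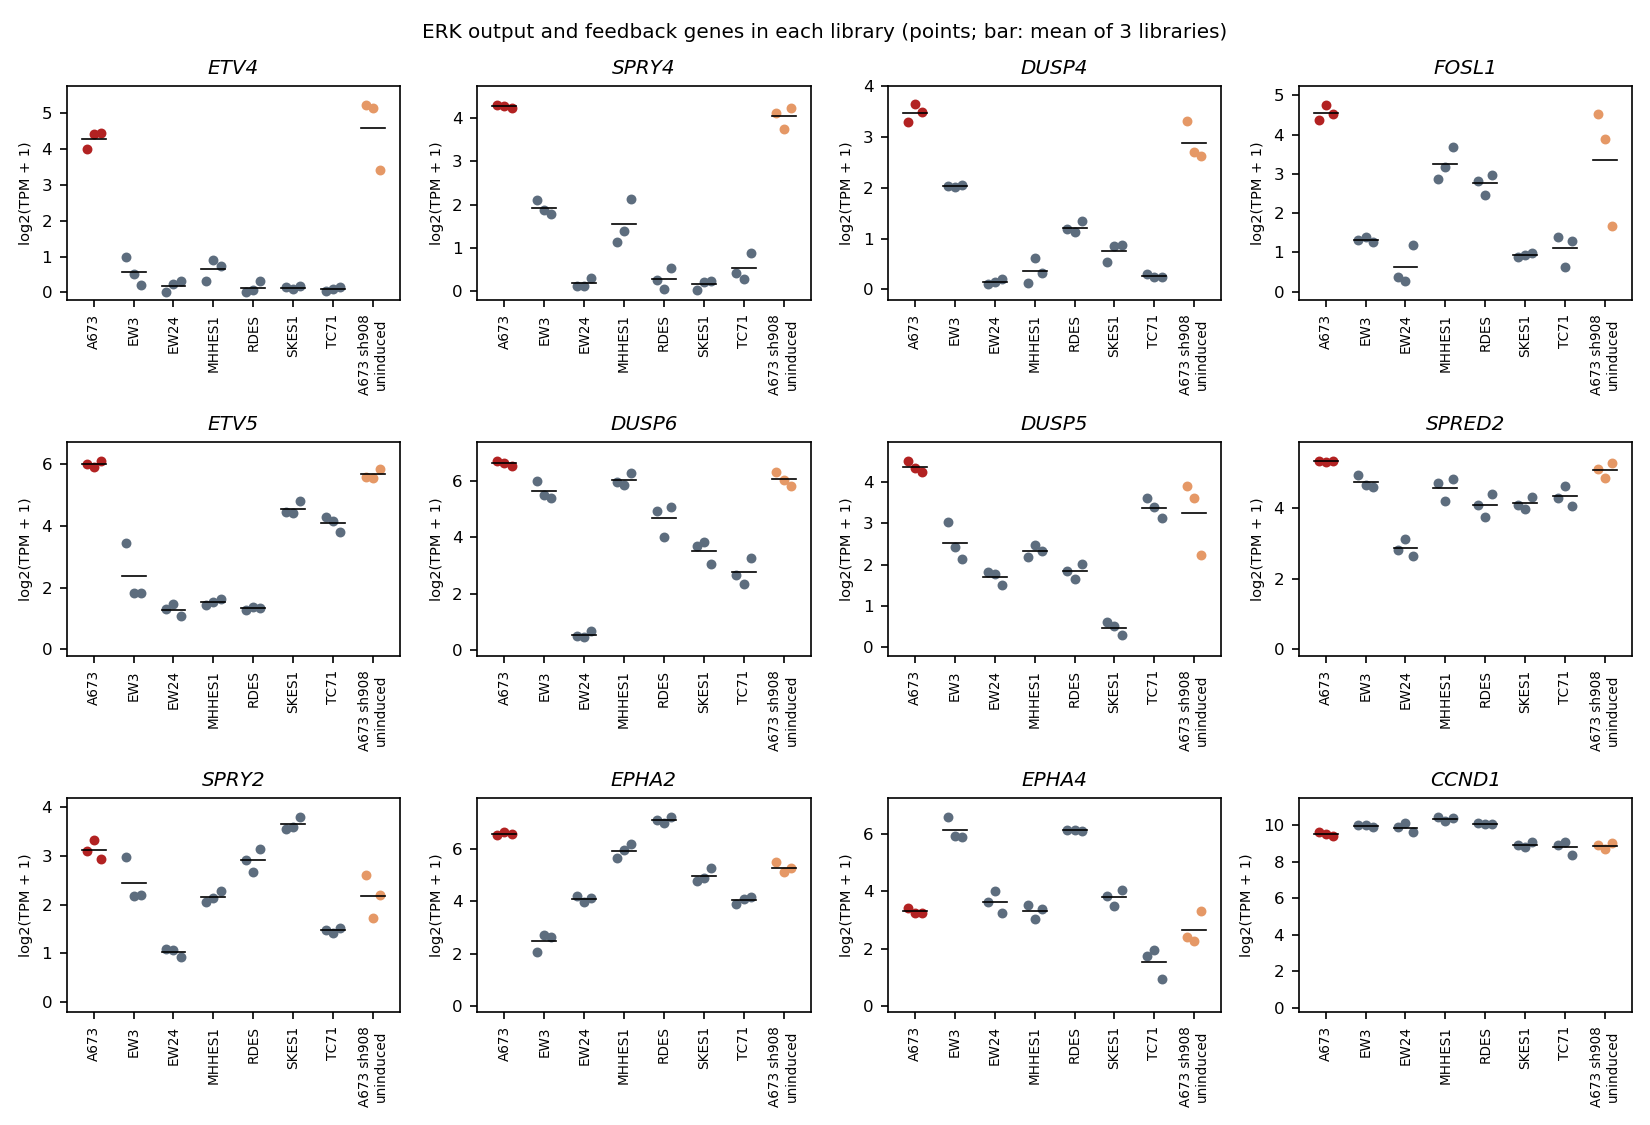
Points are the libraries of each line and of uninduced sh908 cells, on a log2(TPM + 1) axis, with a bar at the mean of 3 libraries; A673 is red and sh908 orange. ETV4, SPRY4 and DUSP4 in both A673 sets lie above every other line, whereas SPRY2, EPHA2, EPHA4 and CCND1 in A673 lie within the range of the other lines.

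The kinases and adaptors that carry the signal had a median nearer that of all genes. Of 21 pathway components, 13 had a log2 fold change above 0, the median was 0.11, beside -0.19 for all genes, and 2 were highest and 1 lowest in A673 (6.0% and 6.20% of all eligible genes). BRAF (chr7:140713328-140924929) measured 9.41, 6.84 and 9.9 TPM, between TC71 at 7.4 TPM and SKES1 at 12.3 TPM, so its level was among the lower ones. MAP2K1, which encodes MEK1, was among the highest, at 67.1 TPM against at most 61 TPM. GRB2, the adaptor that links receptors to RAS, was lowest at 74.2 to 78.8 TPM, just under the 83.4 TPM of the lowest other library. In sh908 cells MAP2K1 measured 30.3, 27.1 and 46.3 TPM, within the range of the other lines.

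CDKN2A (chr9:21967752-21995324), which encodes the cell cycle inhibitors p16 and ARF, had 0 counts in all 3 A673 libraries and 0 in all 3 sh908 libraries. TC71 was also nearly silent with 0.0876 TPM, and the remaining lines measured from 19.8 TPM (MHHES1) to 162 TPM (EW24). Against a floor of 3 counts over the 3 libraries, CDKN2A in A673 was at least 1037-fold lower than the mean of the 6 lines. TUSC1, a further gene on this arm (chr9:25676969-25678444), had 0 counts in both A673 sets as well and at least a 524-fold lower level, and here all 6 other lines expressed it, at 13.6 to 37 TPM. Between and around these genes the picture was uneven. MTAP, the neighbour of CDKN2A that encodes a methionine salvage enzyme, was expressed at 39.96 TPM in A673, within the 18.6 to 50.7 TPM of the other lines, and CAAP1 and KLHL9 further out at 9.54 and 8.87 TPM. CDKN2B, the adjacent inhibitor p15, had a mean of at most 0.309 TPM (SKES1) in any of the 7 lines and 1 count in all in A673. It was called lower over libraries (log2 fold change -2.83, FDR 0.0066) and not over lines. The antisense transcript CDKN2B-AS1 measured 0.19 TPM in A673 against 0.799 to 4.06 TPM. Further toward TUSC1, A673 held 36 counts of DMRTA1 (0.123 TPM, other line means 0 to 0.242 TPM). It held 152 counts of the noncoding LOC107987054 (0.175 TPM, others 0.131 to 0.422 TPM) and 17 of LINC01239 (0.164 TPM, others at most 0.0208 TPM). ELAVL2 in this stretch had 0 counts, with other line means of 0 to 0.511 TPM. DNA copy number was not analysed here.

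**Figure D3:**
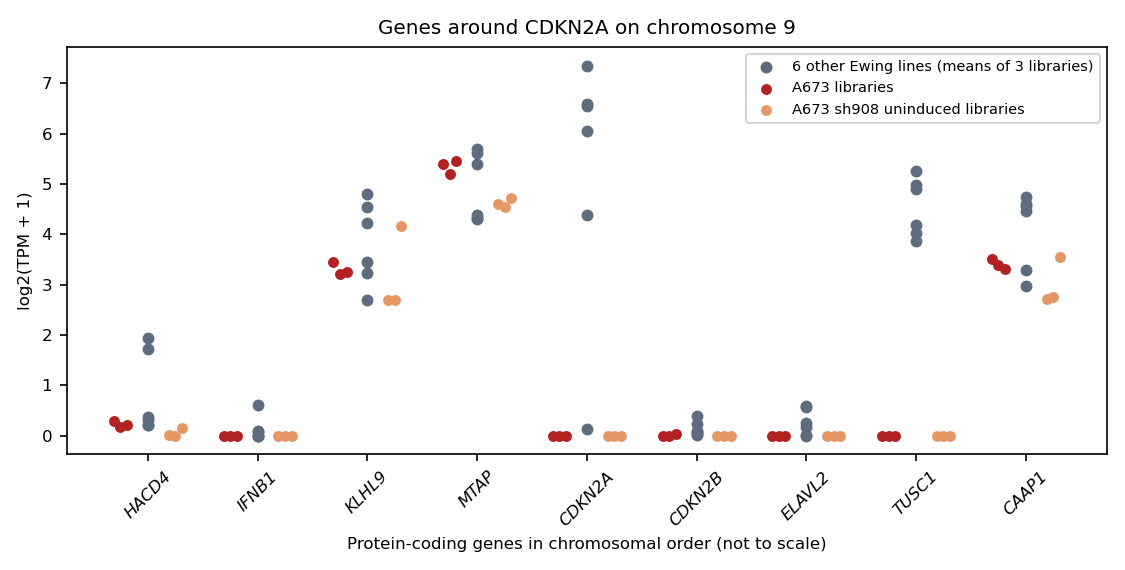
Protein-coding genes around CDKN2A are drawn in chromosomal order, not to scale, on a log2(TPM + 1) axis; red and orange points are the 3 libraries of A673 and of uninduced sh908 cells and grey points the means of the 6 other Ewing lines. CDKN2A and TUSC1 lie at 0 in both A673 sets, while MTAP, KLHL9 and CAAP1 are expressed in both; in parental A673 they lie within the range of the other lines, and CAAP1 in the first and second sh908 libraries (5.51 and 5.7 TPM) lies below it.

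Of the other cell cycle inhibitors and their partners, CDKN2C (p18) was lowest in A673 at 25.8, 26.2 and 26.4 TPM against 45.4 to 194 TPM, and CCND2, which encodes cyclin D2, was nearly silent at 0.0203 TPM against 0.167 to 37.8 TPM. CDK6, a partner of the D cyclins, was highest at 3.67 TPM against at most 1.3 TPM, but it lay within the other lines in sh908 cells (0.384 to 0.785 TPM). In all, 8 of 18 genes of this list had a log2 fold change above 0 and the median was -0.22, close to the -0.19 of all genes. RB1 (26.5 TPM) and CDK4 (309 TPM) were within the range of the other lines.

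The 12 largest excesses by the rule for named genes were MMP1, TMEM233, NPR3, NT5E, PCDHGB5, POU1F1, ADAMTS12, SERPINB7, MYOF, TPSB2, ETV4 and CDH2. The rule takes genes past the FDR threshold first, and since no protein-coding gene passed it in edgeR over lines, all were taken from 332 genes with an unadjusted p under 0.05. All 12 were called by limma on log2(TPM + 1) and with line as a random effect, and 8 by DESeq2, which gave the other 4 (MMP1, NPR3, PCDHGB5 and CDH2) no adjusted p. Of all 25633 genes, limma called 128 higher, the random effect fit 360 and DESeq2 109. The 12 genes were picked for large differences in the same values, so these calls are no separate evidence. In the sh908 libraries the 12 genes ranged from 3.87 TPM (MYOF) to 113 TPM (POU1F1). Several act outside the cell or at its surface. MMP1, an interstitial collagenase, measured 183, 294 and 180.1 TPM in A673 (chr11:102789919-102798160). The 18 other libraries had 0 to 3.91 TPM with a median of 0.122 TPM, and RDES was the next line at 2.18 TPM. The log2 fold change was 8.78 (SE 1.41, FDR 0.21) over lines and 9.92 (SE 0.36, FDR 1.6e-12) over libraries, and sh908 cells had 69.2, 39.4 and 20.8 TPM. NT5E, the ecto-nucleotidase CD73 that makes adenosine, measured 69.1, 83.8 and 74.3 TPM against at most 2.34 TPM. NPR3, the clearance receptor for natriuretic peptides, measured 55.6, 66.5 and 69.4 TPM against at most 1.15 TPM. CDH2, which encodes N-cadherin, measured 40.7, 38.1 and 39.1 TPM against at most 3.07 TPM, in EW3. Among the osteosarcoma lines the highest means were 204 TPM for MMP1 (G292), 151 TPM for NT5E (HOS-MNNG), 59.1 TPM for CDH2 (U2OS) and 18.7 TPM for NPR3 (G292).

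TMEM233, POU1F1 and TPSB2 were near 0 in the osteosarcoma lines as well. TMEM233 had the lowest FDR of the 12 over lines, with 30.2, 31.7 and 33.3 TPM in A673 against at most 0.616 TPM, and its log2 fold change over lines was 8.49 (SE 0.73, FDR 0.059). No osteosarcoma line exceeded 0.563 TPM. POU1F1, a transcription factor of the anterior pituitary, measured 23.4, 18.8 and 20.8 TPM in A673, at most 0.598 TPM in the other Ewing lines and at most 0.0264 TPM in the osteosarcoma lines. In sh908 cells POU1F1 was 32.1, 37.2 and 113 TPM. TPSB2, a mast cell tryptase, measured 39.9 TPM against at most 2.18 TPM, and at most 0.326 TPM in the osteosarcoma lines; its reads can be shared with the near-identical TPSAB1, so the split between the copies is uncertain. PCDHGB5 measured 20.2 TPM against at most 1.08 TPM, and PCDHGA6, named after its values were seen, 18.3 TPM against at most 1.67 TPM (FDR 0.078 over lines). These gamma protocadherins share their last exons with the rest of their cluster on chromosome 5, so their separate levels are uncertain. MYOF, a ferlin of membrane repair, measured 15.7 TPM against at most 0.948 TPM, SERPINB7, a protease inhibitor, 12.7 TPM against at most 0.69 TPM, and ADAMTS12, a secreted metalloprotease, 4.98 TPM against at most 0.272 TPM. Some osteosarcoma lines exceeded A673 in these 3 genes: MYOF was expressed in all 6, at 39.3 to 227 TPM, the highest ADAMTS12 mean was 51.6 TPM (U2OS), and SERPINB7 was also higher in G292. MGLL, a lipase of monoacylglycerols that was also named after its values were seen, measured 2.82, 5.43 and 3.91 TPM against at most 0.342 TPM (FDR 0.078 over lines).

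The 12 largest deficits were CDKN2A, ZC4H2, TUSC1, NDN, RADX, LMX1A, MAGEE1, PRIMA1, ZNF518B, FOXN4, AVPR2 and GRIK3, taken from 277 genes with an unadjusted p under 0.05. None was called by edgeR over lines, whereas DESeq2 on the same line sums called all 12. Limma on log2(TPM + 1) called TUSC1, and the fit with line as a random effect called TUSC1, MAGEE1 and ZNF518B. Of all 25633 genes, DESeq2 called 350 lower, limma 8 and the random effect fit 61. These 12 genes too were picked from the same values, so the calls are no separate evidence. Of the 12, 10 had 0 counts in A673, ZNF518B had 1 and GRIK3 had 3. For genes at 0 counts the size of the difference is only a lower bound against a floor of 3 counts over the 3 libraries. NDN, the imprinted growth regulator necdin, was at least 444-fold lower, with 0.678 to 35.9 TPM elsewhere, and ZC4H2, a zinc finger gene of neural development on the X chromosome, at least 532-fold lower, with 1.65 to 26.3 TPM elsewhere. RADX, which binds single-stranded DNA at replication forks, was at least 395-fold lower, although MHHES1 and RDES were also low at 0.194 and 0.178 TPM. MAGEE1 was at least 181-fold lower against a narrow 1.56 to 5.41 TPM over the other line means. LMX1A, a LIM homeobox factor, was at least 213-fold lower, although EW24 was also near 0 at 0.0335 TPM, and PRIMA1, the membrane anchor of acetylcholinesterase, at least 146-fold lower. FOXN4 and AVPR2 were at least 87.6-fold and 82.1-fold lower, and in each 1 of the 6 lines was under 0.15 TPM. ZNF518B was 3418-fold lower (95% counting interval 613 to 135010), with 3.36 to 14.1 TPM over the other line means and an FDR of 0.078 over lines. GRIK3, a kainate receptor subunit, was 1733-fold lower (593 to 8406). The folds given here for the 12 genes compare counts scaled by library totals, not TPM. Intervals and floors cover counting error only. In sh908 cells no library held more than 0.111 TPM of any of the 12 genes.

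GRB10 (chr7:50590068-50793453) was also far below the other lines and was named after its values were seen. This adaptor, which inhibits signalling from the insulin and IGF1 receptors, measured 0.0988, 0.0736 and 0.0775 TPM in A673. Every other library held at least 9.72 TPM, with a median of 38.2 TPM, and the nearest was 98.4-fold above A673. The A673 levels of GRB10 were under 0.1 TPM, so the size of this ratio is uncertain. The log2 fold change was -6.92 (SE 0.73, FDR 0.078) over lines and -6.86 (SE 0.41, FDR 1.8e-10) over libraries. GRB10 was also low in sh908 cells, at 0.00423, 0.0193 and 0.155 TPM, and every osteosarcoma line held at least 11.5 TPM. ZNF354C, a zinc finger gene, measured 0.023 TPM against at least 1.87 TPM, with the same FDR over lines. In bulk RNA a lower level can come from fewer expressing cells or from less RNA per cell, which cannot be told apart here.

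Of 24 genes of the extracellular matrix and the contractile apparatus, 20 had a log2 fold change above 0, 12 were highest in A673 and 2 lowest (6.0% and 6.20% of all eligible genes), and the median was 1.98, beside -0.19 for all genes. Over lines 6 reached an unadjusted p under 0.05 as higher and 1 as lower (2.66% and 2.71% of all genes); over libraries 20 were called higher and 3 lower (24.1% and 20% of all genes). Members of this and the following lists were chosen for naming after their values were seen. COL1A2, a chain of type I collagen, measured 192, 196 and 203 TPM in A673 against 0 to 31.4 TPM elsewhere, with a median of 0.694 TPM and the highest level in SKES1. Its partner chain COL1A1 was not highest: A673 had 102 TPM and MHHES1 reached 215 TPM. FN1, or fibronectin, measured 1508, 1090 and 1423 TPM against 5.96 to 928 TPM, SPARC 618 TPM against at most 392 TPM, and TNC, or tenascin C, 34.4 TPM against at most 6.99 TPM. ACTA2, smooth muscle actin, measured 414, 456 and 424 TPM against 3.92 to 85.5 TPM, and the intermediate filament gene VIM 1927 TPM against at most 1200 TPM. BGN, the proteoglycan biglycan, was highest at 616 TPM, whereas the related proteoglycans DCN (0.0363 TPM against at least 0.0862 TPM) and LUM (0.00656 TPM against at least 0.262 TPM) were lowest. TPM2, a tropomyosin, was low at 45.6 TPM against a median of 398 TPM, but EW24 was lower still at 17.9 to 19.9 TPM. In sh908 cells COL1A2 measured 81.5, 72.5 and 378 TPM and ACTA2 509, 498 and 524 TPM, above all other lines. TNC measured 4.01, 5.05 and 17.6 TPM there, so its first 2 libraries lay within the range of the other lines. FN1 (710, 803 and 1800 TPM), SPARC (328, 288 and 532 TPM) and VIM (1810, 1600 and 909 TPM) likewise had sh908 libraries within that range.

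Genes described as repressed by the EWS::FLI1 fusion overlapped this group in TPM1 and THBS1. Of 15 such genes 11 had a log2 fold change above 0, 7 were highest in A673 (6.0% of all eligible genes), none was lowest and the median was 1.42, beside -0.19 for all genes, of which 10372 of 25633 were above 0. TGFBR2, a TGF-beta receptor, measured 18.5, 15.3 and 15.8 TPM against 0.375 to 5.05 TPM (log2 fold change 3.66, FDR 2.2e-11 over libraries) and 10.8, 9.51 and 14.8 TPM in sh908 cells. ZYX and VCL, which encode zyxin and vinculin of focal adhesions, measured 178 and 129 TPM against at most 117 and 124 TPM. In sh908 cells ZYX stayed above the other lines at 265, 216 and 125 TPM, and VCL did not, at 73, 52.9 and 42.9 TPM. THBS1, or thrombospondin 1, measured 8.38 TPM against at most 1.92 TPM, but only 0.197 to 0.896 TPM in sh908 cells. IGFBP3 and IGFBP5 of the same list were low, at 0.364 and 0.83 TPM in A673 against medians of 2.6 and 9.26 TPM, but TC71 had 0 TPM of IGFBP3 and 0.733 to 2 TPM of IGFBP5. Of the keratins among the epithelial markers, KRT18 and KRT8 were highest, at 598 and 22.3 TPM against at most 356 and 13.9 TPM, although 1 sh908 library had only 226 TPM of KRT18, while EPCAM (0.181 TPM) and CDH1 (0.037 TPM) were near 0.

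Genes described as activated by the fusion did not lean that way. Of 30, 12 had a log2 fold change above 0, 1 was highest and 2 lowest in A673 (6.0% and 6.20% of all eligible genes), and the median was -0.35, beside -0.19 for all genes. FLI1, whose 3′ part is in the usual fusion, measured 42.8 ± 3.18 TPM in A673 (SD, n = 3). The other lines measured 28.7 to 44.6 TPM except EW3 at 2.08 TPM. EWSR1 measured 316 TPM, between SKES1 at 296 and TC71 at 319 TPM, and KCNN1, the calcium-activated potassium channel gene that sh908 targets, 36 TPM, between SKES1 at 27 TPM and EW3 at 40.7 TPM. NR0B1, a nuclear receptor gene and marker of the fusion's activity, measured 51 ± 4.12 TPM against 196 TPM in EW3 and under 1 TPM in MHHES1 and RDES. Over lines 2 members reached an unadjusted p under 0.05, both as lower (2.71% of all genes). They were PAX7, a myogenic homeobox factor, at 3.96, 4.12 and 3.11 TPM against 10.3 to 121 TPM, and CCK, the neuropeptide cholecystokinin, at 1.57 to 2.27 TPM against a median of 285 TPM. The low CCK was shared with TC71, whose 3 libraries had 0.942 to 1.09 TPM. NPY1R, a neuropeptide Y receptor, was the member highest in A673, at 262 TPM against at most 219 TPM (169 to 210 TPM in sh908 cells), and FCGRT was lowest with PAX7, at 168 TPM against at least 208 TPM.

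The HOX genes, which set position along the body axis, were low in A673 across the HOXA cluster and in parts of the HOXB and HOXC clusters. Of 38 tested, 10 reached an unadjusted p under 0.05 as lower over lines (2.71% of all genes) and 0 as higher; 11 had a log2 fold change above 0, and 7 were lowest in A673 (6.20% of all eligible genes). The median was -1.19 over lines, beside -0.19 for all genes, and -0.33 with limma on log2(TPM + 1), beside -0.09. All 11 HOXA genes were at or near the floor: 7 had 0 counts, and the most abundant, HOXA7, had 0.16, 0.236 and 0.26 TPM against 0.425 to 8.46 TPM elsewhere. HOXA10 had 0, 0.0743 and 0.128 TPM against 1.61 to 15 TPM, and every other line expressed it. HOXA9 had 0 counts, but it was low in several other lines too, with a median of 0.494 TPM. HOXC11 (1.13, 0.929 and 1.15 TPM) and HOXC12 (1.81, 1.47 and 1.22 TPM) lay far below the other lines, which had at least 8.55 and 13.9 TPM, while HOXC8, HOXC9 and HOXC13 of the same cluster lay within the range. HOXC10 was lowest by a narrow gap, at 6.84 to 9.05 TPM against at least 9.19 TPM, and measured 10.5, 15.4 and 39.5 TPM in sh908 cells. HOXB13 measured 8.79 TPM against at least 26.6 TPM and HOXB5 0.415 TPM against at least 1.08 TPM. The HOXD cluster was expressed in A673: HOXD8, HOXD9, HOXD10 and HOXD11 measured 35.9, 55.4, 48.3 and 61.9 TPM, all within the range of the other lines.

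**Figure D4:**
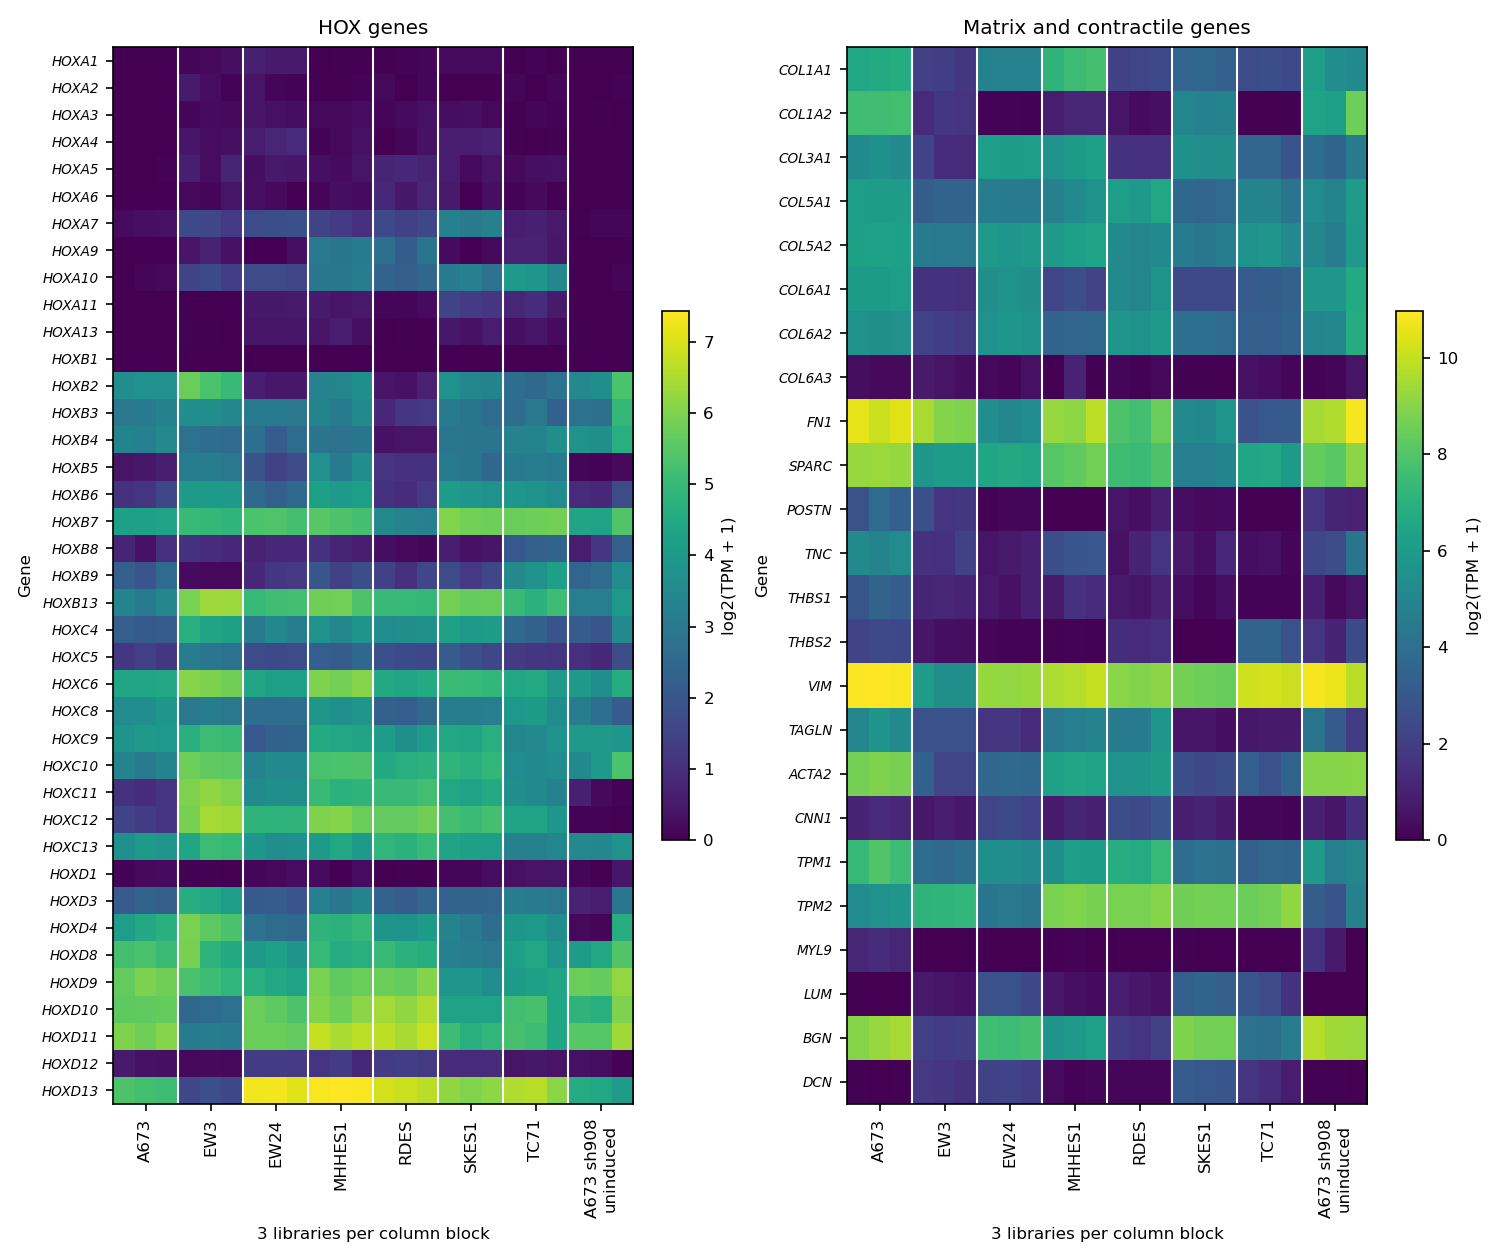
Colour is log2(TPM + 1) for the HOX genes (left) and the matrix and contractile genes (right), with 3 libraries per line and a separate colour scale for each panel. HOXA genes, HOXC11 and HOXC12 are dark in both A673 sets, and COL1A2, ACTA2 and BGN are brightest in A673 and sh908 cells.

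Among 26 receptor kinases, 11 had a log2 fold change above 0 and the median was -0.29, near the -0.19 of all genes, with 4 highest and 1 lowest (6.0% and 6.20% of all eligible genes). RET measured 63.9, 54 and 65.1 TPM in A673 against 0 to 10.1 TPM, and 64.6, 71.7 and 201 TPM in sh908 cells; its log2 fold change was 4.54 (FDR over libraries 1.9e-23). PDGFRB measured 49.1 TPM against at most 31.2 TPM, EGFR 2.28 TPM against at most 1.39 TPM and KDR, a VEGF receptor, 1.67 TPM against at most 0.291 TPM. These 3 genes overlapped with the other lines in sh908 cells, where PDGFRB measured 27, 20.4 and 35.4 TPM, EGFR 1.17, 0.764 and 1.79 TPM and KDR 0.723, 0.259 and 0.274 TPM. ERBB2 was the lowest member, at 7 TPM against at least 9.71 TPM, and KIT was low at 5.78 TPM against a median of 43.9 TPM, with TC71 below it at 1.75 to 4.83 TPM. The neural genes were mixed, with 7 of 19 above 0 (10372 of 25633 for all genes): GAP43, a growth cone protein, was highest at 70.9 TPM against at most 31.4 TPM, as was TUBB3 at 368 TPM against at most 269 TPM (308, 254 and 157 TPM in sh908 cells), and DPYSL3 was lowest at 3.54 TPM against at least 8.81 TPM.

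Of 20 proliferation genes 17 had a log2 fold change above 0 (10372 of 25633 for all genes) and the median was 0.40, beside -0.19. TYMS, MCM6 and CCNA2, 3 of the 20 beside 6.0% of all eligible genes, were highest at 504, 183 and 134 TPM, against at most 378, 168 and 125 TPM. In sh908 cells TYMS measured 377 to 427 TPM, MCM6 115 to 138 TPM and CCNA2 106 to 148 TPM. For the 18 interferon response genes, the size of the difference depended on 1 library of another line. None had a log2 fold change above 0 over lines and the median was -2.74, but the third MHHES1 library was the highest of the 21 libraries for all 18, with 1400 TPM of IFI6 beside 70 and 158 TPM in the first and second. Without MHHES1 the median was -1.43 and 3 genes were above 0, and without the third library of every line it was -1.94 and 2 were above 0. Limma on log2(TPM + 1) gave -1.02. None of these genes was lowest in A673, and over libraries 6 were called lower (20% of all genes) with a median of -1.58.

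By chromosome, the median difference between A673 and the mean of the 6 lines, in log2(TPM + 1) over 10259 protein-coding genes with a mean of at least 5 TPM, was -0.06. It was lowest on chromosomes 1 (-0.30), 8 (-0.29), 17 (-0.27) and 12 (-0.21), and highest on chromosomes 10 (0.19) and 5 (0.12). On chromosomes 8 and 17 the median was below 0 against each of the 6 lines: from -0.56 (RDES) to -0.08 (SKES1) on chromosome 8 and from -0.50 (SKES1) to -0.05 (TC71) on chromosome 17. On chromosome 1 it was below 0 against 5 lines and 0.03 against TC71. Genes lowest in A673 were 11% of those eligible on chromosome 17 and 10.6% on chromosome 8, beside 6.20% of all eligible genes, and genes highest in A673 were 13.4% on chromosome 5 and 12.7% on chromosome 10, beside 6.0%. Gain of chromosome 8 is a recurrent change in Ewing sarcoma; copy number was not analysed here.

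**Figure D5:**
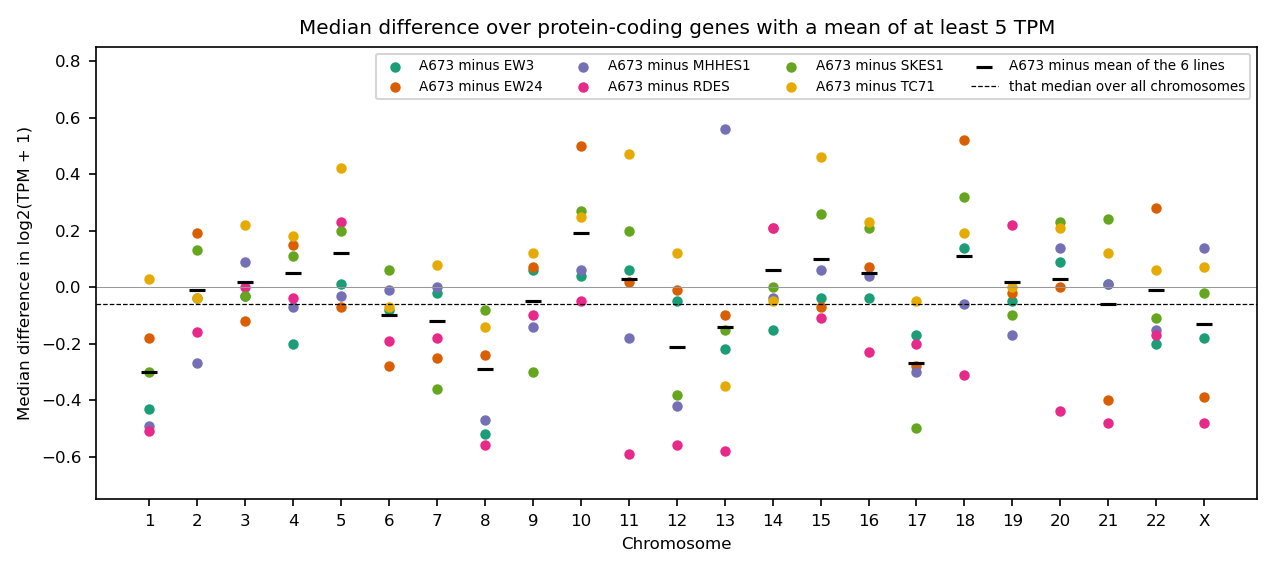
Coloured points are the median difference in log2(TPM + 1) between A673 and each other line over the genes of a chromosome, black bars the median difference from the mean of the 6 lines, and the dashed line that median over all chromosomes. On chromosomes 8 and 17 all 6 points lie below 0, while on most chromosomes the points lie on both sides.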

How the data were processed

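Poly(A) RNA had been measured in sarcoma cell lines with a stranded library kit, per the labels' protocols. Reads were trimmed with fastp 0.19.5 and quantified with kallisto 0.46.2 on build GRCh38.p14, per the submitters' processing notes. The authors' deposited files held an estimated count per transcript (kallisto's expected count, not scaled) and a TPM value per transcript, per the file headers. The deposited effective lengths entered 1 alternative fit.

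Of 177816 transcripts, 169966 (95.6%) were joined to 41582 genes with RefSeq's gene table for GRCh38.p14. The rest held 1.06% to 1.36% of the counts in the 21 libraries of the 7 lines. They held 0.952% to 1.17% in the uninduced sh908 libraries and at most 1.6% in the osteosarcoma libraries. Transcript TPM and counts were summed per gene and counts rounded. For the main test the 3 libraries of each line were summed, filterByExpr dropped low genes, libraries were scaled by TMM, and edgeR's robust quasi-likelihood test was fitted to 7 line sums with Benjamini-Hochberg adjustment; it gives a single A673 sum the spread of the other 6. The fit over 21 libraries used 1 mean per line. TPM was logged with a pseudocount of 1.

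Named genes were the MAPK output list and 9 loci of interest, and the 12 largest log2 differences in each direction among called genes that did not overlap in TPM and averaged 1 log2 CPM or more, filled from an unadjusted p under 0.05; protein-coding genes only. Some named genes and list members are not reported here. The members and the 18 gene lists were chosen with earlier results of these data known. The scripts were tested on simulated data. Alternatives were DESeq2, limma on log2(TPM + 1), line as a random effect, other scaling and filters, and left-out lines and libraries. Versions were R 4.3.3, edgeR 4.0.16, limma 3.58.1, DESeq2 1.42.0, Python 3.11.15, numpy 2.4.6, pandas 2.3.3 and matplotlib 3.10.9. Induced sh908 libraries were not used. At 0 counts the floor is 3 counts over the 3 libraries of a line, and folds against it compare counts scaled by library totals.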

Additional observations from a re-analysis of the deposited data

Results flagged for a closer look

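For 8 of 49 named genes tested, the mean of 1 of the 6 other Ewing lines lay far from the remaining 5 by Dixon's criterion. Chance alone gives about 1 in 20 if line means are normally distributed. Several flagged genes lay near 0 in these lines, where that rate may not hold. Low values were FLI1 in EW3 (2.08 TPM, others 28.7 to 44.6 TPM) and SPRED2 in EW24 (6.32 TPM, others 16.3 to 26.1 TPM). The remaining flags were high values. RDES was high for PCDHGB5 (0.727 TPM, others at most 0.126 TPM), ADAMTS12 (0.217 TPM, others at most 0.0681 TPM) and SERPINB7 (0.433 TPM, others at most 0.11 TPM). MHHES1 was high for TMEM233 (0.245 TPM, others at most 0.0829 TPM), EW3 for CDH2 (2.57 TPM, others at most 0.398 TPM) and SKES1 for PRIMA1 (8.59 TPM, others at most 1.58 TPM).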

How the results depend on the processing

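The number of genes called between A673 and the 6 lines differed widely between fits. It was 1 in the main test, 459 with DESeq2 (109 higher, 350 lower), 136 with limma on log2(TPM + 1) (128 higher, 8 lower), 421 with line as a random effect (360 higher, 61 lower), 11315 over 21 libraries, 2 with no filter on low counts and 23 with uninduced sh908 cells in place of parental A673. Leaving out lines gave 1 to 3 calls (3 without TC71) and leaving out replicates 1 to 7 (7 without replicate 3). With a replicate block over 21 libraries the calls were 11377. Same-numbered libraries of A673 and of each other line hardly deviated together from their line means (18 correlations, -0.0202 to 0.0862). This gave no sign that the numbers pair A673 with another line, and pairs among the 6 other lines were not examined. Genes highest in A673 numbered 194 with a gap of at least 2-fold and 465 for sh908 cells, and genes lowest 265 and 1703; leaving out lines gave 939 to 1088 highest and 1066 to 1960 lowest genes, and leaving out replicates 1000 to 1087 and 1179 to 1829. Of the named genes, 3 turned direction. NR0B1, at -0.41 over lines, was 1.75 over libraries with and without the replicate block, 1.0 with limma and 1.86 with line as a random effect. CCND1, at 0.03, was -0.15 with limma, -0.17 with sh908 cells, -0.09 without SKES1, -0.06 without TC71 and -0.05 without replicate 1. MTAP, at 0.15, was -0.20 with sh908 cells. The cause of these shifts was not tested. MMP1 and ETV4, with log2 fold changes of 8.78 and 6.54, were not called by edgeR over lines and were called by limma on log2(TPM + 1). Levels under about 0.1 TPM rest on few counts.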
